A study of Homo sapiens with 4 samples.

Results

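The Arp2/3 complex, a nucleator of branched actin filaments, was examined at the RNA level together with its regulator coronin 1A in Jurkat, a human T cell leukemia line that is grown as an established culture. The 10 genes are the subunit genes ARPC1A, ARPC1B, ARPC2, ARPC3, ARPC4, ARPC5, ARPC5L, ACTR2 and ACTR3, and CORO1A. They were chosen by gene symbol from the 16328 transcript rows of the deposited table, each of the 10 had 1 row, and no member row carried a second gene symbol. The choice was made with ARPC1B already known to be among the largest differences in this series, so every value below is a description of the contrast that chose it. The series holds 3 libraries labelled SLEAR shRNA, numbered 1 to 3, and 1 library labelled Control. The SLEAR shRNA cells were transduced with a lentiviral vector that expresses a short hairpin RNA against SLEAR, and the Control, per the series design, carried a control shRNA. All 4 libraries share the cell line, the culture medium and the 3' end protocol MAPS, which reads the sequence next to the poly(A) tail. The labels do not say whether the numbered libraries used distinct hairpins or came from separate cultures, so a p-value reflects how much these particular libraries vary, part or all of which may be technical. The table was searched for SLEAR by name and 0 rows matched, so its level is not analysed here.

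As background, the Arp2/3 complex binds the side of an existing actin filament and starts a daughter filament there, which gives the branched networks that push the cell edge forward and build the contact between a T cell and the cell it recognises. ACTR2 and ACTR3 encode the actin-related proteins Arp2 and Arp3, which form the start of the daughter filament. ARPC2 and ARPC4 form the core that holds them, and ARPC3 bridges to Arp3. Humans have alternative genes for a pair of the subunits: ARPC1A or ARPC1B fills one position and ARPC5 or ARPC5L fills another, so the complexes of a cell differ in composition. ARPC1B is the form that predominates in blood cells, and inherited loss of it causes an immune deficiency. CORO1A, a coronin of leukocytes, binds filaments and the complex and is needed for T cell survival.

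The alternative subunits ARPC1B and ARPC1A lie next to each other on chromosome 7 in the RefSeq gene order, and their coding sequences are compared here. As the libraries read 3' ends, telling their reads apart depends on the last bases of the transcripts, given further below, and not on the coding window shown. In the GENCODE 29 transcripts matched to the table's identifiers, the coding sequences had 1119 bases in ARPC1B and 1113 bases in ARPC1A, and 783 of the 1104 aligned bases were identical, which is 70.9%. The window of 60 coding bases around their longest aligned run of identity, bases 121 to 180 of both genes counted from the start codon, reads as follows from 5′ to 3′, with capitals at the 16 bases that differ.
ARPC1B: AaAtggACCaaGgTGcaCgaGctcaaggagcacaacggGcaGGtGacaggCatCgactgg
ARPC1A: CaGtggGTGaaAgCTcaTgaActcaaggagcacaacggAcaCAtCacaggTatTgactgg
The longest exact run that both transcripts shared anywhere was 24 bases. Of the 265 runs of 36 bases in the last 300 bases of ARPC1A, 0 occurred in a transcript of another gene. Of the same number in ARPC1B, 104 (39.25%) also occurred in AC004922.1, a gene model that overlaps its last exon on the same strand. The rest occurred in no other gene. How near the shared runs lie to the poly(A) tail was not examined. The value of ARPC1B is therefore uncertain to the extent that reads were divided between ARPC1B and AC004922.1. The other pair, ARPC5L on chromosome 9 and ARPC5 on chromosome 1, was 71.3% identical over its aligned coding bases, and its longest shared run was 13 bases.

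Depth and sample identity were checked over the whole table. The libraries held an estimated 4814166 to 7524253 reads in SLEAR shRNA and 8384889 reads in Control. SLEAR shRNA-3 was the shallowest and had 6941 rows at 0, against 2314 to 2984 in the other libraries. The differences of ARPC1B, ARPC1A, CORO1A, ARPC2 and ACTR3 are given with and without it. Of 20 T lineage markers, 19 had at least 1 RPM in a library, and their summed level was 5273 to 6429 RPM in SLEAR shRNA and 5981 RPM in Control. Markers of myeloid cells, of which 6 of 9 had a row, summed to at most 3.06 RPM in any library. Those of erythroid cells, of which 3 of 6 had a row, summed to at most 1.42 RPM. B cell markers, of which 3 of the 6 used had a row, summed to 24.1 to 31.6 RPM in SLEAR shRNA and 17.5 RPM in Control, mainly CD79A. Epithelial or kidney markers, of which 3 of 7 had a row and KRT18 was at 0 throughout, summed to 60.2 to 69.4 RPM in SLEAR shRNA and 79.5 RPM in Control, mainly NEFL. Fibroblast markers, with 3 rows, summed to 9.04 to 23.1 RPM in SLEAR shRNA and 15.6 RPM in Control. The part of these small differences in the results below was not tested.

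ARPC1B was at 347, 321 and 415 RPM in SLEAR shRNA libraries 1, 2 and 3, against 164 RPM in Control. RPM, reads scaled by library size, is the unit that the deposited values fit. The values rested on an estimated 2446, 2415 and 1999 reads in SLEAR shRNA and 1378 reads in Control. All 3 SLEAR shRNA libraries lay above the Control, whose 95% exact Poisson interval of 156 to 173 RPM covers counting error only. The SLEAR shRNA mean was 361 ± 48.7 RPM (SD, n = 3). The fitted difference, SLEAR shRNA minus Control on the log2(RPM + 1) scale, was 1.12 ± 0.22 (SE), which is a 2.18-fold higher level. As RNA was taken from whole cultures, a different number of cells of a kind and a different amount of RNA per cell cannot be told apart, for this and every difference below. The difference placed ARPC1B at rank 20 from the top among the 4851 tested rows with a mean log2(RPM + 1) of at least 4.

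ARPC1A, the alternative form of the same subunit, stood in the opposite direction. It was at 171, 180.0 and 132 RPM in SLEAR shRNA libraries 1, 2 and 3, against 259.8 RPM in Control, with a SLEAR shRNA mean of 161 ± 25.4 RPM (SD, n = 3). All 3 SLEAR shRNA libraries lay below the Control, and SLEAR shRNA-3 was the lowest for ARPC1A as it was the highest for ARPC1B. The log2 difference was -0.70 ± 0.25 (SE), a 1.62-fold lower level, at rank 298 from the bottom of the same 4851 rows.

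**Figure D1:**
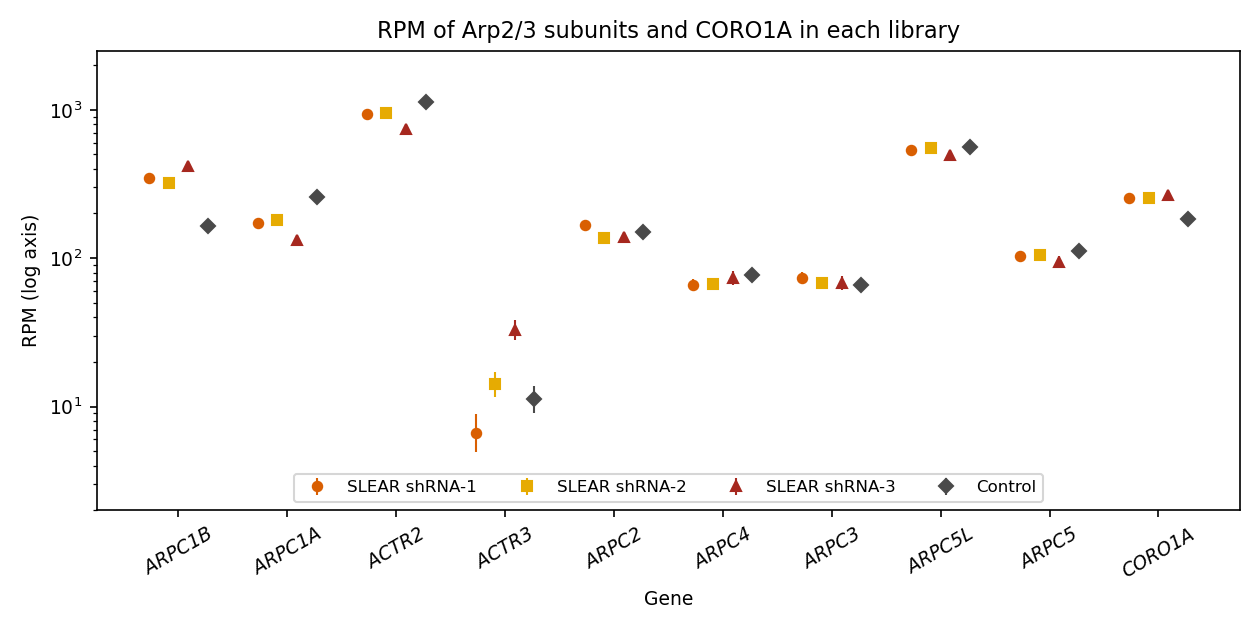
RPM (log axis) of each Arp2/3 subunit and CORO1A in SLEAR shRNA libraries 1, 2 and 3 and Control; points are single libraries and bars are 95% exact Poisson intervals of the estimated reads, which cover counting error only. ARPC1B is at 321 to 415 RPM in the SLEAR shRNA libraries and 164 RPM in Control, and ARPC1A is at 132 to 180.0 RPM in SLEAR shRNA and 259.8 RPM in Control.

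Read against each other, ARPC1B held a larger share of the reads assigned to the ARPC1 forms with SLEAR shRNA than in Control. ARPC1B made up 67.0%, 64.1% and 75.8% of the estimated reads of the pair in SLEAR shRNA libraries 1, 2 and 3, against 38.8% in Control. The 95% Wilson intervals were 65.4 to 68.5%, 62.5 to 65.6% and 74.2 to 77.4% in SLEAR shRNA and 37.2 to 40.4% in Control. The Control lay apart from each SLEAR shRNA library by more than counting error. SLEAR shRNA-3 also lay apart from SLEAR shRNA-1 and SLEAR shRNA-2, so libraries of the same group differed by more than counting error too. The mean share with SLEAR shRNA was 69.0 ± 6.13% (SD, n = 3). The ratio of ARPC1B to ARPC1A was 2.03, 1.78 and 3.14 in SLEAR shRNA and 0.633 in Control. The sum of both forms was 518, 501 and 548 RPM in SLEAR shRNA and 424 RPM in Control. Reads are without molecular identifiers as far as the labels say, so these intervals cover counting error only, and a share between genes depends on how the authors assigned reads to each. Without SLEAR shRNA-3 the share still lay between 64.1% and 67.0%, against 38.8% in Control.

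The other pair of alternative subunits had nearly the same proportion in all 4 libraries. ARPC5L made up 83.8%, 84.1% and 84.2% of the reads of ARPC5L and ARPC5 in SLEAR shRNA libraries 1, 2 and 3, against 83.5% in Control, and each SLEAR shRNA interval overlapped the Control interval of 82.5 to 84.4%. ARPC5L was at 538, 555 and 498 RPM in SLEAR shRNA and 565 RPM in Control, a log2 difference of -0.09 ± 0.18 (SE). ARPC5 was at 104, 105 and 93.7 RPM in SLEAR shRNA and 112 RPM in Control, a log2 difference of -0.15 ± 0.20 (SE). Both forms were below the Control in every SLEAR shRNA library, by differences smaller than their SE.

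**Figure D2:**
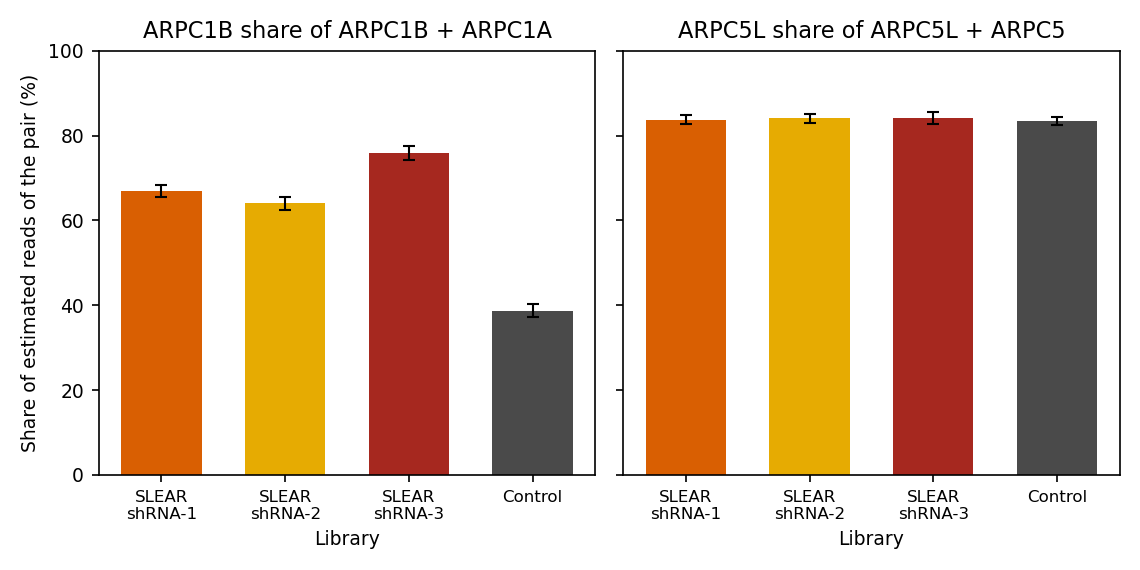
Share of the estimated reads of each pair of alternative subunits, in percent, by library: ARPC1B of ARPC1B and ARPC1A on the left, ARPC5L of ARPC5L and ARPC5 on the right; bars are single libraries and error bars are 95% Wilson intervals. The ARPC1B share is 64.1 to 75.8% in SLEAR shRNA and 38.8% in Control, and the ARPC5L share is 83.5 to 84.2% in all 4 libraries.

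Of the actin-related proteins, ACTR2 was lower and ACTR3 was scattered. ACTR2, which encodes Arp2, was at 944, 956 and 746 RPM in SLEAR shRNA libraries 1, 2 and 3, against 1126 RPM in Control, a log2 difference of -0.36 ± 0.24 (SE). Its SLEAR shRNA libraries all lay below the Control, and SLEAR shRNA-3 was the lowest. ACTR3, which encodes Arp3, was at 6.67, 14.2 and 33.0 RPM in SLEAR shRNA and 11.2 RPM in Control, from 47 to 159 estimated reads. The Control lay inside the SLEAR shRNA range, the coefficient of variation among the SLEAR shRNA libraries was 75.5%, and the log2 difference of 0.38 ± 0.94 (SE) changed sign without SLEAR shRNA-3, to -0.18. ACTR3 was the only member with a mean log2(RPM + 1) under 4. Its row was far below that of ACTR2 in every library. Whether the row holds all reads of ACTR3 was not tested, so it may not give the full level of the gene.

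Among the core and bridging subunits, ARPC2 was at 166, 136 and 139 RPM in SLEAR shRNA libraries 1, 2 and 3, against 150.2 RPM in Control, so the groups overlapped. Its log2 difference was -0.03 ± 0.22 (SE). ARPC4 was at 65.8, 67.1 and 73.3 RPM in SLEAR shRNA and 77.0 RPM in Control, all below the Control, with a log2 difference of -0.16 ± 0.22 (SE). ARPC3 was at 73.9, 67.6 and 68.1 RPM in SLEAR shRNA and 66.1 RPM in Control, all above the Control, with a log2 difference of 0.08 ± 0.22 (SE). For ARPC2, ARPC3 and ARPC4 the difference was smaller than its SE.

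CORO1A was the member whose SLEAR shRNA libraries lay closest together. It was at 255, 254 and 265 RPM in SLEAR shRNA libraries 1, 2 and 3, with a coefficient of variation of 2.46%, against 184 RPM in Control. All 3 SLEAR shRNA libraries were above the Control, and the log2 difference was 0.48 ± 0.17 (SE), a 1.40-fold higher level. The value is uncertain, because 114 of the 265 runs of 36 bases in the last 300 bases of its transcript, 43.0%, also occur in the unprocessed pseudogene AC133555.4. In 3 of the 4 libraries the value of CORO1A departed from a whole number of reads by more than 0.05 reads, while the other 37 member values did not.

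Taking ARPC1B against the rest of the complex, the median log2 difference of the other 8 subunits was -0.16, -0.11 and -0.15 in SLEAR shRNA libraries 1, 2 and 3. ARPC1B lay above that median by 1.24, 1.08 and 1.48, a mean gap of 1.26 ± 0.20 (SD, n = 3) on the log2 scale. It had the highest difference of the 9 subunits in SLEAR shRNA libraries 1 and 2, while in SLEAR shRNA-3 ACTR3 had 1.48 and ARPC1B 1.33. The summed RPM of the 9 subunits was 2416, 2402 and 2198 in SLEAR shRNA and 2532 in Control. Without ARPC1A and ARPC1B it was 1898, 1901 and 1651 in SLEAR shRNA and 2108 in Control. The largest part of that sum was ACTR2, at 944, 956 and 746 RPM in SLEAR shRNA and 1126 RPM in Control. By the fit, the median of the 8 other subunits was -0.12, beside -0.11 over all 12350 tested rows. Among rows with a mean log2(RPM + 1) of at least 4, which leaves out ACTR3, the median of the 7 other subunits was -0.15, the value of ARPC5, beside -0.02 over all such rows.

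**Figure D3:**
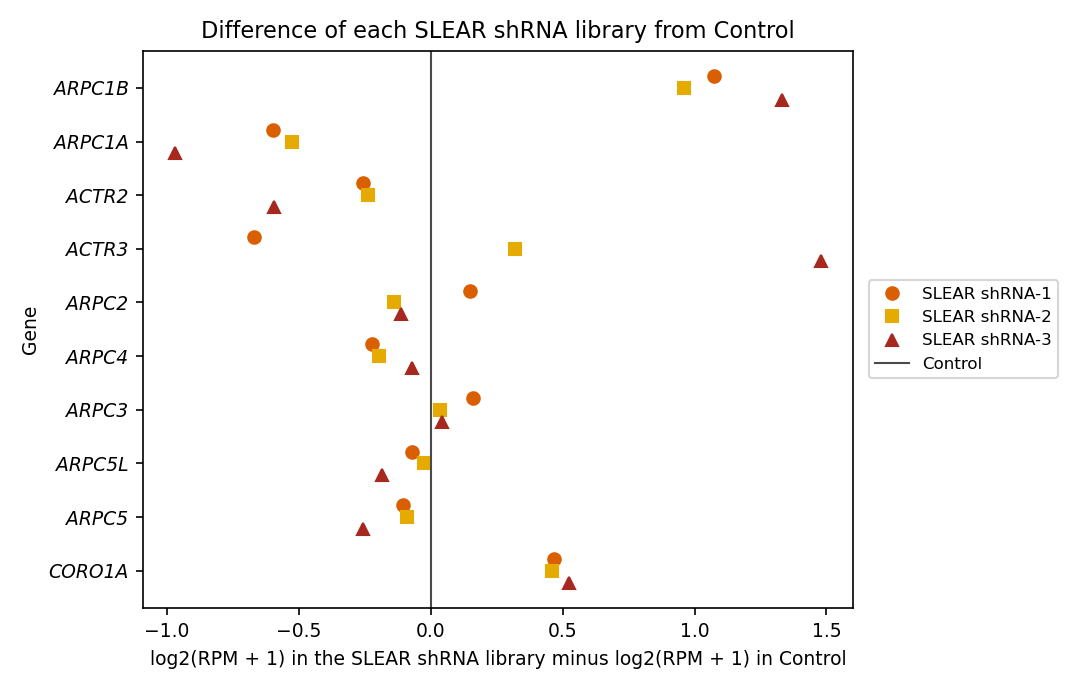
Difference of each SLEAR shRNA library from Control in log2(RPM + 1), by gene; each symbol is 1 library and the vertical line at 0 is the Control. ARPC1B lies at 0.96 to 1.33 and ARPC1A at -0.97 to -0.53, CORO1A lies at 0.46 to 0.52, and ACTR3 spreads from -0.67 to 1.48.

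Counted over the 10 members, 3 were above the Control in every SLEAR shRNA library (ARPC1B, ARPC3 and CORO1A), 5 were below it (ARPC1A, ARPC4, ARPC5, ARPC5L and ACTR2), and 2 overlapped. Of the tested rows with a mean log2(RPM + 1) of at least 4, 25.0% were above the Control in every SLEAR shRNA library and 25.6% below, and over all 12350 tested rows 17.8% were above and 28.6% below. Nothing is read from the members' counts, since ARPC1B was chosen on this contrast and 1 Control is shared by all comparisons. By limma-trend over all 12350 rows, 0 members passed an adjusted p of 0.05, as did 0.0% of all rows. At an unadjusted p under 0.05 there were 2 members higher (ARPC1B and CORO1A) and 1 lower (ARPC1A), against 0.745% of all rows higher and 1.94% lower, 2.68% in all. With SLEAR shRNA-3 left out and only rows with a mean log2(RPM + 1) of at least 4, 14.4% of 4851 rows passed by limma-trend, 7.11% higher and 7.26% lower. In that fit 3 of the 9 members tested passed, namely ARPC1B (log2 difference 1.02 ± 0.15 SE, adjusted p = 3.73e-09), ARPC1A (-0.56 ± 0.15 SE, adjusted p = 0.00536) and CORO1A (0.46 ± 0.15 SE, adjusted p = 0.0223). The spread in that fit comes from the SLEAR shRNA libraries 1 and 2 alone and the single Control is assumed to vary like them. With SLEAR shRNA-1 or SLEAR shRNA-2 left out instead, ARPC1B differed by 1.15 ± 0.44 and 1.20 ± 0.42 (SE), with larger SE. As ARPC1B was chosen on this contrast, its p-value supports nothing by itself.

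**Figure D4:**
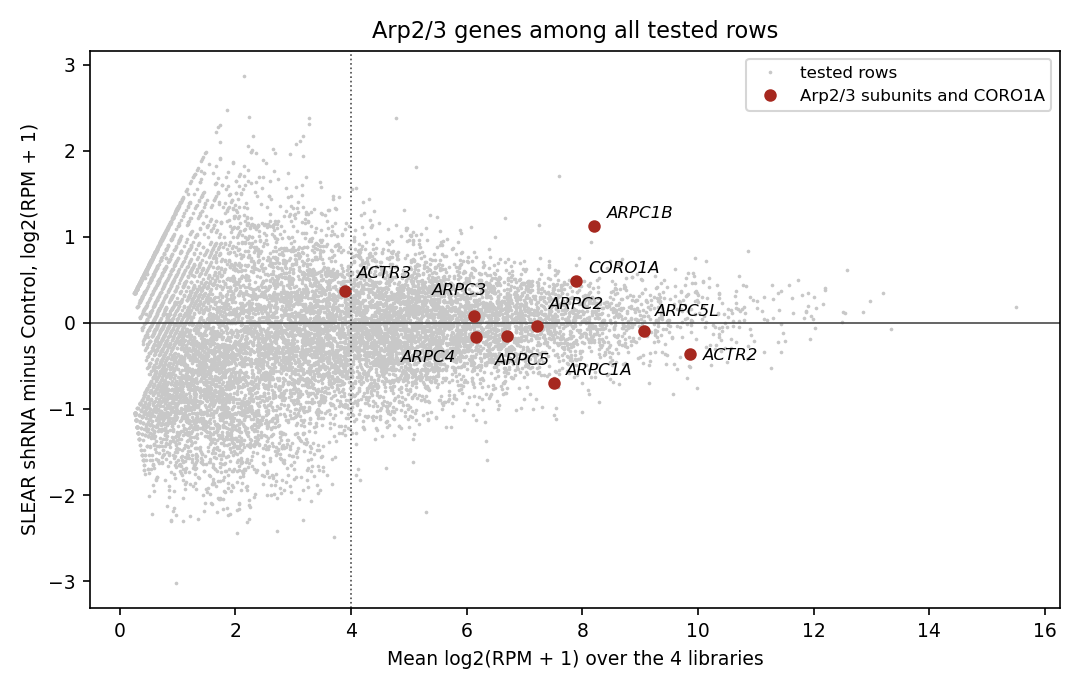
Log2 difference of SLEAR shRNA minus Control against the mean log2(RPM + 1) over the 4 libraries, for the 12350 tested rows (grey) and the 10 members (red, named); the dotted line marks a mean of 4. ARPC1B at 1.12 and ARPC1A at -0.70 lie farthest from 0 among the members.

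Position in the genome was looked up in annotations of GRCh38, while the table was made on hg19, so only order and overlap are given. ARPC1A and ARPC1B are neighbours on chromosome 7 and are followed by PDAP1 and BUD31. In RefSeq ARPC1B overlaps PDAP1 by 144 bases, and the labels do not say whether reads were counted by strand. PDAP1 was at 0.709, 0.399 and 4.15 RPM in SLEAR shRNA libraries 1, 2 and 3, against 1.31 RPM in Control. BUD31, a splicing factor, was at 21.3, 21.5 and 33.2 RPM in SLEAR shRNA and 16.1 RPM in Control. The overlap of AC004922.1 with the last exon of ARPC1B is 203 bases. For ARPC4, 4.85% of such runs occur in the readthrough gene ARPC4-TTLL3, whose row, shared with TTLL3, was at 12.5, 12.1 and 11.2 RPM in SLEAR shRNA and 12.6 RPM in Control. For ACTR3, 1.32% occur in the processed pseudogene ACTR3P2, and for ARPC1A, ARPC2, ARPC3, ARPC5, ARPC5L and ACTR2 0% occur elsewhere.

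Promoter windows are shown for ARPC1A and CORO1A, the members that lay farthest below and above the Control after ARPC1B. The RefSeq table (GRCh38.p14, 250 bases before to 50 bases after the start) had an entry for 9 of the 10 members, and ARPC1B had none. Motifs were searched as letters on both strands and are in capitals: the ETS motif CCGGAAG, the GC box GGGCGG, the CCAAT box CCAAT and the TATA box TATAAA. The CArG box of serum response factor, a regulator of actin genes, was searched too. None of these matches overlapped another motif. The ARPC1A window is chr7:99325648-99325947 on the plus strand and the CORO1A window is chr16:30183352-30183651 on the plus strand.
ARPC1A: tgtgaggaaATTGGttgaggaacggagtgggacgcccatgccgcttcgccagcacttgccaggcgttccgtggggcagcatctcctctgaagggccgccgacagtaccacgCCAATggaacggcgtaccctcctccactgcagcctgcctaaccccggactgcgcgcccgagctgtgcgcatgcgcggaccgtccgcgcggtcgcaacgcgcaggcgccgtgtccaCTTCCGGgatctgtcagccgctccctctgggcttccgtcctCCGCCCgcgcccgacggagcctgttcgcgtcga
CORO1A: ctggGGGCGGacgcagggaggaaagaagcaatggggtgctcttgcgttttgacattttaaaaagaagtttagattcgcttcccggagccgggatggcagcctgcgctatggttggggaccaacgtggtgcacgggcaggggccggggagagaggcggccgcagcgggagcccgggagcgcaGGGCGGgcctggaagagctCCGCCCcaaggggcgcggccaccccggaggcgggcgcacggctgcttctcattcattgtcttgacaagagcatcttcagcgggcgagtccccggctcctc
The ARPC1A window held 1 ETS motif, 1 GC box and 2 CCAAT boxes, and the CORO1A window held 3 GC boxes and 0 of the other motifs. Over the 9 members with an entry, some of which had several windows, 9 held a GC box, 3 an ETS motif and 4 a CCAAT box in at least 1 window, and 0 held a TATA box or a CArG box. Among all 34943 windows of the table, 44.9% held the GC box, 10.2% the ETS motif, 34.7% the CCAAT box, 11.6% the TATA box and 1.30% the CArG box. A match describes these letters only.

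The wider actin system was described through 8 lists of genes outside the members, with 113 tested rows. By limma-trend, 0 of the 113 passed, as did 0.0% of all rows. Of the 60 rows with a mean log2(RPM + 1) of at least 4, 22 were above the Control in every SLEAR shRNA library (36.7%) and 7 were below (11.7%), beside 25.0% and 25.6% of all such rows. The counts by list below are to be read beside the same 25.0% and 25.6%. The lists share the Control with the members and were drawn up with earlier results of these data known. These shares and the counts by list therefore support nothing by themselves. In the fit without SLEAR shRNA-3, 4 of the 60 were higher and 4 lower, 13.3% in all, beside 14.4% of all rows.

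Genes that activate the complex lay on both sides of the Control. Of 5 WASP and WAVE rows at a mean log2(RPM + 1) of at least 4, 1 was above and 1 below the Control in every SLEAR shRNA library. NCKAP1L, the blood cell subunit of the WAVE complex, was at 68.5, 73.0 and 81.8 RPM in SLEAR shRNA and 58.8 RPM in Control, and its relative NCKAP1 was at 46.1, 52.9 and 33.4 RPM in SLEAR shRNA and 68.2 RPM in Control. WAS, the Wiskott-Aldrich syndrome protein that turns the complex on in blood cells, was at 96.9, 95.3 and 51.5 RPM in SLEAR shRNA and 66.5 RPM in Control. It passed as higher without SLEAR shRNA-3 (log2 difference 0.52, limma-trend adjusted p = 0.0341), while SLEAR shRNA-3 itself lay below the Control. The WASH complex, which acts on endosomes, had 2 such rows, and both overlapped: FAM21A was at 16.3, 12.1 and 19.7 RPM in SLEAR shRNA and 14.2 RPM in Control, and FAM21C at 32.5, 37.5 and 30.5 RPM in SLEAR shRNA and 36.6 RPM in Control.

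Among 8 rows of genes that modulate the complex or its branches, 4 were above and 1 below. DBNL, a drebrin-like adaptor of T cells, was at 30.6, 27.7 and 33.9 RPM in SLEAR shRNA and 17.9 RPM in Control. CTTN, cortactin, which stabilises branches, was at 27.7, 23.5 and 6.23 RPM in SLEAR shRNA and 36.5 RPM in Control. CORO1B, a relative of CORO1A, was at 347, 366 and 496 RPM in SLEAR shRNA and 283 RPM in Control, and GMFG, which removes branches, at 844, 793 and 769.6 RPM in SLEAR shRNA and 691 RPM in Control. Of the other coronins listed, CORO7 was above the Control in every SLEAR shRNA library. CORO1C overlapped it, at 74.2, 61.3 and 93.1 RPM in SLEAR shRNA and 78.7 RPM in Control. HCLS1 overlapped too, at 182, 163 and 138 RPM in SLEAR shRNA and 164 RPM in Control. NCK2, an adaptor, was the row that passed, as lower, without SLEAR shRNA-3 (limma-trend adjusted p = 0.0496), at 32.8, 34.6 and 70.8 RPM in SLEAR shRNA and 51.5 RPM in Control, so that SLEAR shRNA-3 lay on the other side.

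Of 12 rows of actins and proteins that bind actin monomers, 3 were above and 1 below. PFN1, profilin 1, was at 4153, 4253 and 7154 RPM in SLEAR shRNA and 3847 RPM in Control. PFN2, its relative, was at 72.8, 59.8 and 60.7 RPM in SLEAR shRNA and 130.4 RPM in Control, with all 3 SLEAR shRNA libraries below the Control, and passed without SLEAR shRNA-3 (limma-trend adjusted p = 1.43e-05). ACTB was at 568, 581 and 873 RPM in SLEAR shRNA and 539.5 RPM in Control, and is uncertain because actin genes have many processed pseudogenes. ACTG1 was at 45545.5, 44432.5 and 53786.1 RPM in SLEAR shRNA and 41876.2 RPM in Control, so the ACTB row was far below it in every library. Whether the row holds all reads of ACTB was not tested.

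Of 6 rows of capping and severing proteins, 2 were above and 0 below. CAPG, which caps and bundles filaments, was at 121, 127 and 58.2 RPM in SLEAR shRNA and 52.5 RPM in Control, so that SLEAR shRNA-3 was close to the Control, and it passed without that library (limma-trend adjusted p = 4.86e-09). CAPZA1, of capping protein, was at 94.3, 90.2 and 114 RPM in SLEAR shRNA and 109 RPM in Control. Of 6 rows of formins and other elongation factors, 3 were above and 0 below. FMNL1, a formin of leukocytes, was at 105, 93.7 and 149 RPM in SLEAR shRNA and 80.4 RPM in Control, and DIAPH2 at 15.7, 22.5 and 20.4 RPM in SLEAR shRNA and 21.2 RPM in Control.

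Of 17 rows of cross-linkers and cortex proteins, 7 were above and 2 below. ZYX, zyxin of focal adhesions, was at 48.4, 39.3 and 93.7 RPM in SLEAR shRNA and 32.4 RPM in Control. MSN, moesin, which ties filaments to the membrane, was at 837, 819 and 667 RPM in SLEAR shRNA and 1011 RPM in Control. Its relative EZR, ezrin, stood the other way at 112, 95.2 and 96.0 RPM in SLEAR shRNA and 71.0 RPM in Control. EZR and MYH9, a non-muscle myosin at 188, 172 and 204 RPM in SLEAR shRNA and 132 RPM in Control, passed without SLEAR shRNA-3 (limma-trend adjusted p = 0.0284 and 0.0423). ACTN4, an actin cross-linker, was at 186, 169 and 276 RPM in SLEAR shRNA and 251 RPM in Control. It passed as lower without SLEAR shRNA-3 (log2 difference -0.50, limma-trend adjusted p = 0.0152), while SLEAR shRNA-3 itself lay above the Control and the difference with all libraries was -0.29. Of 4 rows of actin-related proteins outside the complex, 2 were above and 2 below. ACTR6, a subunit of a chromatin remodeler, was at 85.3, 98.9 and 98.5 RPM in SLEAR shRNA and 142 RPM in Control, and ACTL6A at 19.9, 27.8 and 23.5 RPM in SLEAR shRNA and 18.7 RPM in Control. ACTR6 passed without SLEAR shRNA-3 (limma-trend adjusted p = 0.00684).

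**Figure D5:**
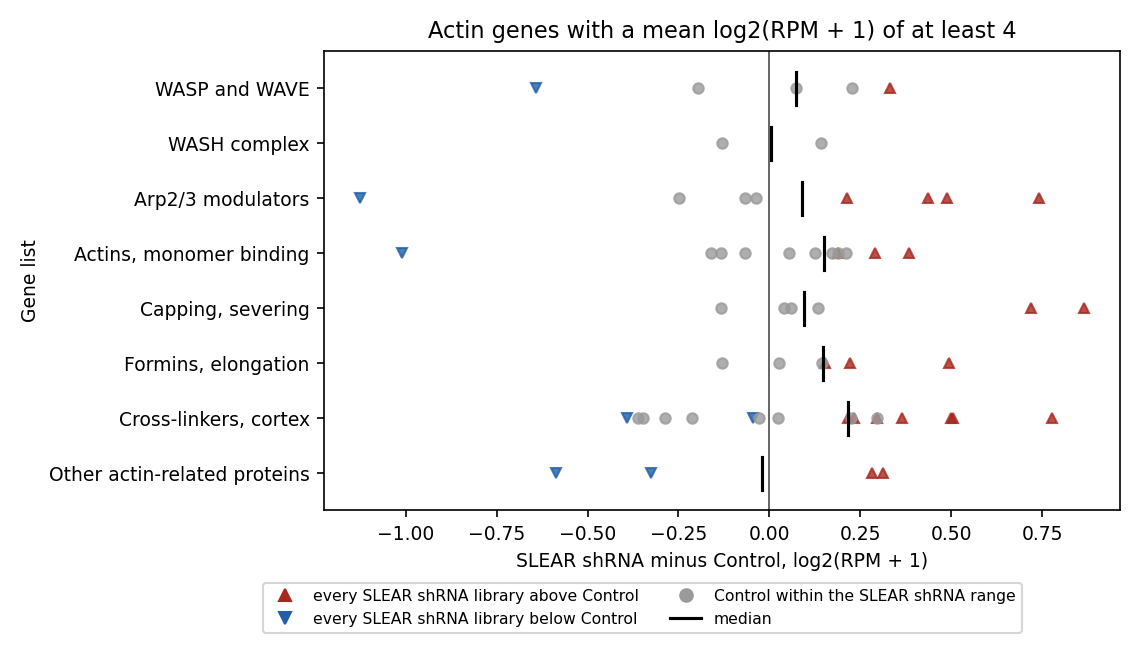
Log2 difference of SLEAR shRNA minus Control for 60 rows of 8 actin gene lists, by list; upward triangles have every SLEAR shRNA library above the Control, downward triangles every one below, circles overlap, and black lines are medians. The median of cross-linkers and cortex proteins is 0.22 and that of WASP and WAVE genes is 0.07.

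The rows whose profile over the 4 libraries was most like that of ARPC1B, by the Euclidean distance of centred log2(RPM + 1) among the rows with a mean of at least 4, were REEP4, RPUSD1, YDJC, POLD1 and REEP2. REEP4 had a distance of 0.03 and was at 176, 166 and 216 RPM in SLEAR shRNA and 83.4 RPM in Control. RPUSD1 had a distance of 0.11 and was at 50.1, 50.0 and 65.6 RPM in SLEAR shRNA and 25.6 RPM in Control. POLD1, the catalytic subunit of DNA polymerase delta, had a distance of 0.17 and was at 35.0, 35.0 and 49.6 RPM in SLEAR shRNA and 18.4 RPM in Control. In the rows named here, as in ARPC1B, SLEAR shRNA-3 was the highest library and the Control the lowest. The likeness is a description over 4 values.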

How the data were processed

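Polyadenylated RNA of Jurkat cells was read at its 3' ends in 3 SLEAR shRNA libraries and 1 Control library, and grouping follows the sample titles. The authors deposited 1 table of values that fit RPM, reads scaled by library size, for 16328 transcript rows. Per the submitters' processing notes, FastQC, Bowtie2 and SAMtools were used with hg19. Versions, the assignment of reads to rows, the use of strand and any filter are not given in the sources used here, and no column of another series was present.

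The deposited values were used as RPM without rescaling. Each read of a 3' end library stands for 1 transcript end, so values were not divided by length. Shares and ratios within a pair of genes are shares of assigned reads, and are compared between libraries. The spacing of low values served to estimate depth. Of values above 0, 96.4% to 96.8% were whole multiples within 0.05 reads. The limma-trend fits used the RPM values. Reads estimated from them, rounded to whole numbers, served for the Poisson and Wilson intervals, the shares of a pair and limma-voom. By counting alone, a value of 0 allows up to 3 reads, which is 0.426, 0.399 and 0.623 RPM in SLEAR shRNA libraries 1, 2 and 3, against 0.358 RPM in Control. Where rows averaged 1 RPM or more and were identical in all libraries, 1 was kept, which left 16151.

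SLEAR shRNA was compared with Control by limma-trend (limma 3.58.1, R 4.3.3) on log2(RPM + 1), for the 12350 rows with at least 1 RPM in a library, with Benjamini-Hochberg adjustment over all of them and a threshold of 0.05. The fold understates changes of low rows. With 1 Control, the SLEAR shRNA libraries alone gave the spread, and the Control is assumed to vary like them. The procedure was also run on simulated data. Their row means left out SLEAR shRNA-3 and their dispersion was the same in every library. The simulation therefore does not cover how far SLEAR shRNA-3 lay from the other libraries, and nothing is concluded from it. The members, the gene lists and the tests were chosen with earlier results of these data known. One gene list and 1 marker gene are not reported here. Besides the members, each list's rows with the highest and lowest difference were named (mean log2(RPM + 1) of at least 4, single symbol), and the 5 rows nearest to ARPC1B. WAS, CORO1B, CORO1C, CORO7, HCLS1, GMFG, NCK2, ACTB, ACTG1, EZR, MYH9 and ACTN4 were named after their values were seen. Shared runs of 36 bases and coding identity used GENCODE 29 transcripts and Biopython 1.88, and promoters are from RefSeq (GRCh38.p14). Alternatives covered scaling, pseudocounts of 0.1 and 5 RPM, filters, limma-voom, row handling, robust moderation and leaving out libraries.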

Additional observations from a re-analysis of the deposited data

How the results depend on the processing

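Over 15 alternatives the log2 difference of ARPC1B ran from 1.02 to 1.20, that of ARPC1A from -0.78 to -0.56 and that of CORO1A from 0.46 to 0.50. The gap of ARPC1B over the median of the other subunits ran from 1.11 to 1.35. ARPC1B (1.02), ARPC1A (-0.56) and CORO1A (0.46) passed the threshold in 1 setting, with SLEAR shRNA-3 left out and a mean log2(RPM + 1) of at least 4, where 697 rows passed. With SLEAR shRNA-1 or SLEAR shRNA-2 left out under the same filter, settings chosen after seeing the data, 0 rows passed by limma-trend, although unadjusted p-values under 0.05 numbered 15 higher and 64 lower without the first, and 13 higher and 21 lower without the second. Without a filter 377 rows passed, 1 higher and 376 lower. In the other settings 0 passed, by limma-voom too, where the unadjusted p was under 0.05 for 69 higher and 222 lower rows. Leaving out 1 library moved ARPC2 between -0.13 and 0.017, with the sign turned to 0.017 without SLEAR shRNA-2 and to 0.0047 without SLEAR shRNA-3 under either filter. ACTR3 ran from -0.18 to 0.90, negative without SLEAR shRNA-3. The cause was not tested.

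With SLEAR shRNA-3 left out and the filter at 4, the actin lists had 1 row past the threshold among WASP and WAVE genes, 1 among modulators, 1 among actins and monomer binding, 1 among capping and severing, 3 among cross-linkers and 1 among other actin-related proteins. Without a filter there was 1 among other actin-related proteins (ACTR5), at 0 in every SLEAR shRNA library. No paired analysis was possible because there was only 1 Control library for the 3 SLEAR shRNA libraries. The planned count test was not run, since the deposited values are not counts and reads were only estimated from them. TMM size factors ran from 0.966 to 1.05. For ACTR3, on 47 to 159 estimated reads, the 95% exact Poisson intervals of the SLEAR shRNA libraries (4.90 to 8.87, 11.7 to 17.2 and 28.1 to 38.6 RPM) did not overlap, so they differed by more than counting error.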
